A study of Rattus norvegicus with 8 samples.

Results

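Glucuronosyltransferases (Ugt), sulfotransferases (Sult) and glutathione transferases (Gst and the microsomal Mgst) are the enzymes of phase II conjugation, and their transcripts were followed through hepatocytes and progenitor clusters cut from rat liver. Members were all non-control probes of the array whose gene name began with Ugt1, Ugt2, Ugt3, Sult and a digit, Gst with a class letter and a digit, or Mgst and a digit. The rule used names only and no measured value. It found 81 probes on 126 spots under 51 gene names, of 45598 probes and 36174 gene names on the array, and no probe carried the name of a Ugt3 gene or of Ugt1a1. Updating the names by accession gave 52 genes, since the probes that the file names Ugt2b15 are now Ugt2b35 and some of those it names Ugt2b17 are now Ugt2b15.

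The study transplanted bone marrow-derived mesenchymal cells (BM-MCs) and followed small hepatocyte-like progenitor cells (SHPCs), which form clusters in a liver whose mature hepatocytes (MHs) are held back from dividing. Every group came from F344 rats that had received retrorsine (Ret), an alkaloid that blocks hepatocyte division, followed by partial hepatectomy (PH). The groups were MHs cut from control recipient livers (2 samples), SHPC clusters of control recipient livers (control SHPCs, 3 samples) and SHPC clusters of livers transplanted with BM-MCs (BM-MC SHPCs, 3 samples). The labels give the strain as DPPIV+, whereas the methods describe female DPPIV- recipients and male DPPIV+ donors, and no age of the recipients was found. The BM-MCs were adherent marrow cells expanded in culture and given through the spleen, and clusters were picked by their shape in stained frozen sections with an ultraviolet laser. How many animals the samples represent is given neither by the labels nor by the methods. P-values therefore rest on the spread among samples, part of which may be technical, and they would be too small if samples shared an animal.

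Conjugation makes lipophilic compounds soluble enough to leave in bile or urine. Glucuronosyltransferases transfer glucuronic acid, sulfotransferases transfer sulfate, and glutathione transferases join glutathione to electrophiles such as epoxides and products of lipid peroxidation. Adult hepatocytes hold large amounts of many of these enzymes. Many are inducible through the receptors CAR (Nr1i3), PXR (Nr1i2) and AhR and through the oxidative stress factor Nrf2 (Nfe2l2). Retrorsine itself becomes toxic by oxidation to reactive pyrroles, which glutathione can capture.

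Members of a family lie side by side in the genome and resemble each other, which limits what a probe can tell apart. On the array's build (rn4) the 8 mu genes lay within 149 kb of chromosome 2, and the 9 tested Ugt2 genes within 672 kb of chromosome 14. The tested alpha genes lay at a pair of sites, 3 on chromosome 8 and 2 on chromosome 9. The probes of 3 mu genes that cover the same stretch of their transcripts are shown first. Gstm1 was the gene called between control SHPCs and MHs, and Gstm6l, a dim gene, was higher in BM-MC SHPCs than in the other groups. The Gstm1 probe shown is its second one, which was not called, and not the brightest one behind that call. Capitals mark the bases that differ from the Gstm1 probe where the probes overlap, 5′ to 3′. They came from the minus strand, at chr2:203575827-203575886 for Gstm1, chr2:203532376-203532435 for Gstm3 and chr2:203469465-203469524 for Gstm6l.
Gstm1: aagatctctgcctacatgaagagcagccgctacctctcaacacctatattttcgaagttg
Gstm3: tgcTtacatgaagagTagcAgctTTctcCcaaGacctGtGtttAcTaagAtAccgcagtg
Gstm6l: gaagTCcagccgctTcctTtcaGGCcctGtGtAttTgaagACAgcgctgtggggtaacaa
The Gstm3 probe shared 39 of 52 overlapping bases with that of Gstm1, and the Gstm6l probe 29 of 43.

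Among probes of different genes, the closest pair belonged to Ugt2b and Ugt2b37, at chr14:22176113-22176172 and chr14:22419234-22419293 on the plus strand. Capitals mark the bases that differ between them.
Ugt2b: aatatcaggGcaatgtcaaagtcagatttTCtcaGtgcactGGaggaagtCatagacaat
Ugt2b37: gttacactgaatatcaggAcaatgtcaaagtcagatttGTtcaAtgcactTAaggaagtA
They shared 44 of 51 overlapping bases (86.3%), and a Ugt2b and a Ugt2b15 probe shared 28 of 34 (82.4%), so signals of Ugt2b genes could mix. The last sequences shown are the probes of Gsta5 (chr8:83211804-83211863, plus strand) and Mgst2 (chr2:140567741-140568393, plus strand, across an intron), an alpha and a microsomal enzyme that stood low in every SHPC sample.
Gsta5: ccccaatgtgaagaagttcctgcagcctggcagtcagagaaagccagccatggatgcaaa
Mgst2: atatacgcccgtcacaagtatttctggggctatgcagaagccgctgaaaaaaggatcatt

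All 8 arrays lay on 1 slide, with between 57.0% and 61.5% of spots well above background and 0 saturated spots. Signals are log2 values relative to the 75th percentile of their array, and a gene is given by its brightest tested probe. Testing was limited to the 23111 probes that 3 or more of the 7 completely marked arrays placed well above background. The MHs and control SHPC replicates 1 and 2 shared a set of 4 neighbouring arrays, and control SHPC replicate 3 shared the other set with the BM-MC SHPCs. BM-MC SHPC replicate 3 stood apart from its group: its median difference over tested probes was 0.178 from control SHPC replicate 3, and 0.229 and 0.233 from the other BM-MC samples. Control SHPC replicate 3 was likewise nearer to it than to the other controls (0.225 and 0.234), and BM-MC SHPC replicate 1 was nearer to MH replicate 2 (0.19) than to the other BM-MC samples (0.212 and 0.229). All 10 hepatocyte markers were tested, and their summed linear signal ran from 917 to 923 in MHs, from 937 to 1090 in control SHPCs and from 823 to 1040 in BM-MC SHPCs. In bulk samples such as these, fewer cells of a type and less RNA per cell cannot be told apart.

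Of the 52 genes, 43 (64 probes) were tested. The other 9 were Sult1d1, Sult1e1, Sult2b1, Sult4a1, Sult5a1, Sult6b1, Ugt1a8, Ugt2b7 and Gstt4, each well above background on 0 or 1 of these arrays. Sult1e1, the oestrogen sulfotransferase, was above background on 0 arrays. Of the tested genes, 2 were Ugt1, 9 Ugt2, 5 Sult1, 3 Sult2, 5 Gst alpha, 8 Gst mu, 8 Gst of other classes and 3 Mgst.

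Control SHPCs were compared with MHs to see how the progenitor clusters differ from the hepatocytes around them. Control SHPCs held less Gstm1 mRNA than MHs, and this was the 1 member gene called lower at an adjusted p under 0.05, against 0.216% of all tested probes called lower. None was called higher (0.917% of all tested probes, limma). At an unadjusted p under 0.05, 12 of 43 member genes were lower (27.9%, against 11% of all tested probes) and 0 were higher (8.21% of all tested probes). The methods' t-test gave 12 lower and 1 higher unadjusted, and 0 in either direction after adjustment. Of the 43 genes, 31 lay below 0 (72.1%, against 53.8% of all tested probes, with 46.2% above 0), and the median log2 fold change was -0.20 against -0.03 over all tested probes. Without MH replicate 1 these were 25 of 43 and -0.10. In 18 genes every control SHPC sample was below both MHs (41.9%, against 22.7%), and in 4 every one was above (9.3%, against 18.7%). The 12 genes were 4 of the alpha class, 5 of the mu class, Mgst2, Ugt2b1 and Sult1c3, as the map of all members by sample shows. One of the mu genes, Gstm6, was well above background on 0 of 3 control arrays, so its control level is only a bound, and without it 11 of 42 genes were lower. Of all 64 tested member probes 19 were lower at an unadjusted p under 0.05 (29.7%) and 0 higher.

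**Figure D1:**
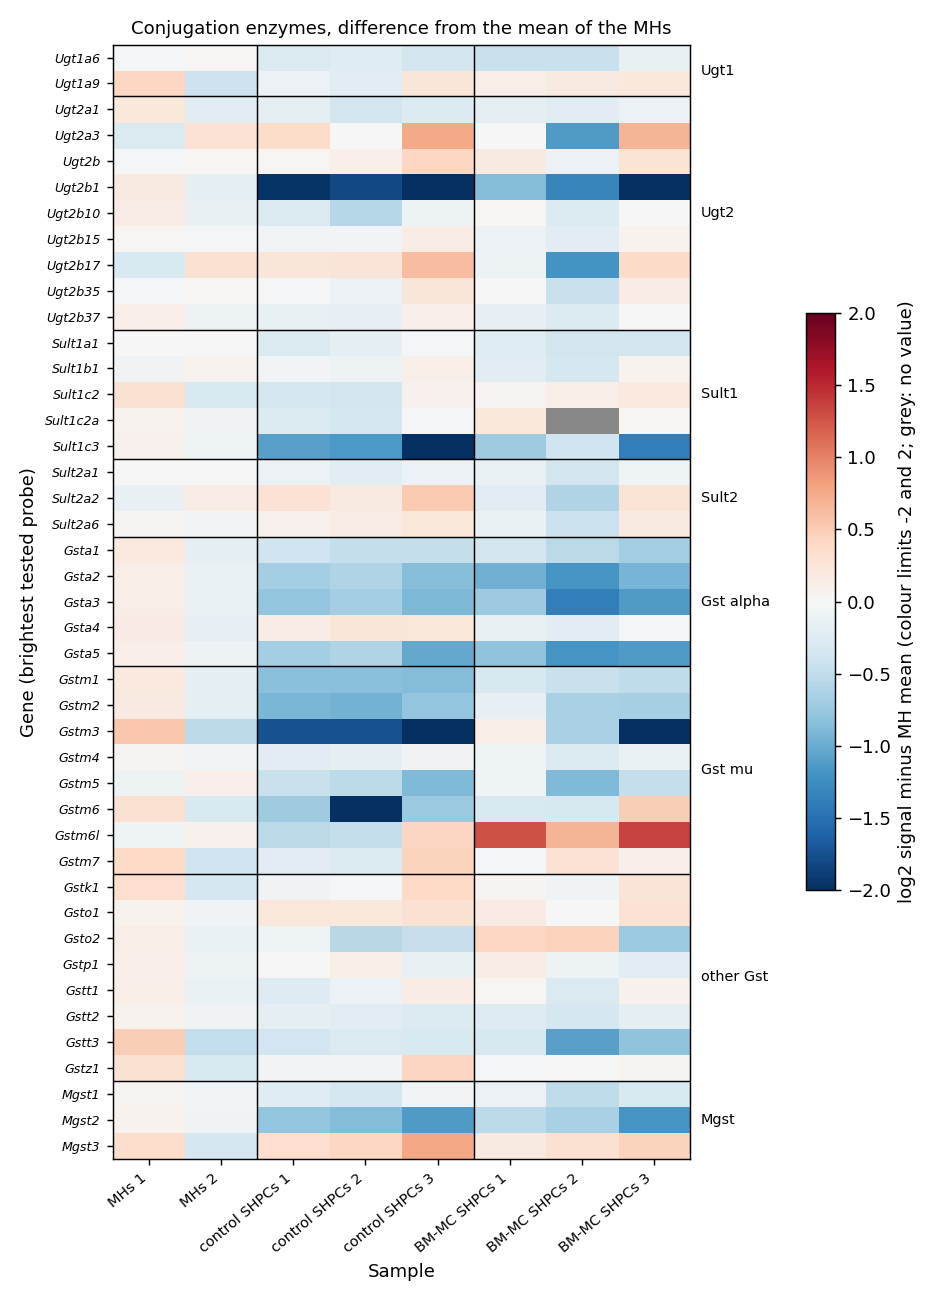
Each row is 1 of the 43 tested genes and each column a sample, and colour gives the log2 signal minus the mean of the MHs, with limits at -2 and 2 and grey for the 1 missing value. Blue fills most alpha and mu rows and the rows of Ugt2b1, Sult1c3 and Mgst2 in the SHPC columns, Gstm6l is red in the BM-MC columns, and the Ugt1, Sult2 and other Ugt2 rows are mostly pale apart from Ugt2a3 and Ugt2b17 in BM-MC SHPC replicate 2.

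The mu class, which handles epoxides and other planar electrophiles, lay below 0 in all 8 genes in control SHPCs against MHs (median -0.73), and 5 of the 8 had an unadjusted p under 0.05. Without Gstm6 these were 7 of 7 (median -0.62) and 4, and with a floor for dim signals the median of the 8 was -0.41. With quantile normalization, and without MH replicate 1 or control SHPC replicate 1 or 2, it was 7 of 8. Gstm1 was at 4.36 and 3.96 in MHs, at 3.32, 3.32 and 3.30 in control SHPCs and at 3.83, 3.72 and 3.66 in BM-MC SHPCs. Control samples were nearly equal and no group overlapped another, with the BM-MC samples between the others. The log2 fold change of control SHPCs against MHs was -0.85 (SE 0.15, adjusted p = 0.048), a 1.8-fold lower level. The second Gstm1 probe, whose sequence is shown above and which overlaps the first, gave -0.78. The call held under 8 of the 23 alternatives with an adjusted p, which ran from 0.00955 to 0.24, while the log2 fold change stayed between -1.05 and -0.64. It was lost without MH replicate 1 (adjusted p = 0.24), without control SHPC replicate 1, 2 or 3 (0.168, 0.161 and 0.0893) and without BM-MC SHPC replicate 1 or 2 (0.0656 and 0.088).

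Gstm2, another mu enzyme, was at 3.10 and 2.73 in MHs, 2.0, 1.97 and 2.13 in control SHPCs and 2.76, 2.26 and 2.25 in BM-MC SHPCs. Its controls lay below every other sample (log2 fold change against MHs -0.88, SE 0.20, adjusted p = 0.0984). Gstm3 was at -0.09 and -1.17 in MHs, -2.37, -2.37 and -3.80 in control SHPCs and -0.50, -1.28 and -2.95 in BM-MC SHPCs. Its probes gave -2.22 (adjusted p = 0.196) and -1.02 against MHs, so the size of that difference was not settled. Gstm5 also reached an unadjusted p under 0.05 (log2 fold change -0.62). For Gstm6 the MHs were at least 1.01-fold above the bound for control SHPCs, which leaves the size and the presence of a difference unmeasured. Gstm4, Gstm6l and Gstm7 were at -0.15, -0.20 and -0.01.

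The alpha class, abundant hepatocyte enzymes that bind bilirubin and reduce lipid peroxides, gave 4 of 5 genes with an unadjusted p under 0.05, all lower in control SHPCs than in MHs (class median -0.71). Gsta2 was at 3.60 and 3.35 in MHs, 2.80, 2.87 and 2.63 in control SHPCs and 2.51, 2.30 and 2.55 in BM-MC SHPCs. Its samples fell in separate ranges in the order MHs, control SHPCs, BM-MC SHPCs. The log2 fold change of control SHPCs against MHs was -0.71 (SE 0.15, adjusted p = 0.0799). Gsta5, an enzyme that detoxifies aflatoxin epoxide, was at 5.02 and 4.81 in MHs, 4.23, 4.31 and 3.89 in control SHPCs and 4.11, 3.73 and 3.78 in BM-MC SHPCs. Both SHPC groups lay below the MHs and overlapped each other.

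Gsta3 was at 3.51 and 3.24 in MHs, 2.59, 2.69 and 2.47 in control SHPCs and 2.64, 2.0 and 2.25 in BM-MC SHPCs. Gsta1 was at 6.33 and 5.94 in MHs, 5.74, 5.67 and 5.66 in control SHPCs and 5.78, 5.59 and 5.45 in BM-MC SHPCs. In both genes every SHPC sample was below both MHs. Their log2 fold changes of control SHPCs against MHs were -0.79 (adjusted p = 0.128) and -0.45 (adjusted p = 0.204). Gsta4, which conjugates the lipid peroxidation product hydroxynonenal, did not follow the other alpha genes: it was at 2.78 and 2.45 in MHs and at 2.77, 2.85 and 2.83 in control SHPCs.

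**Figure D2:**
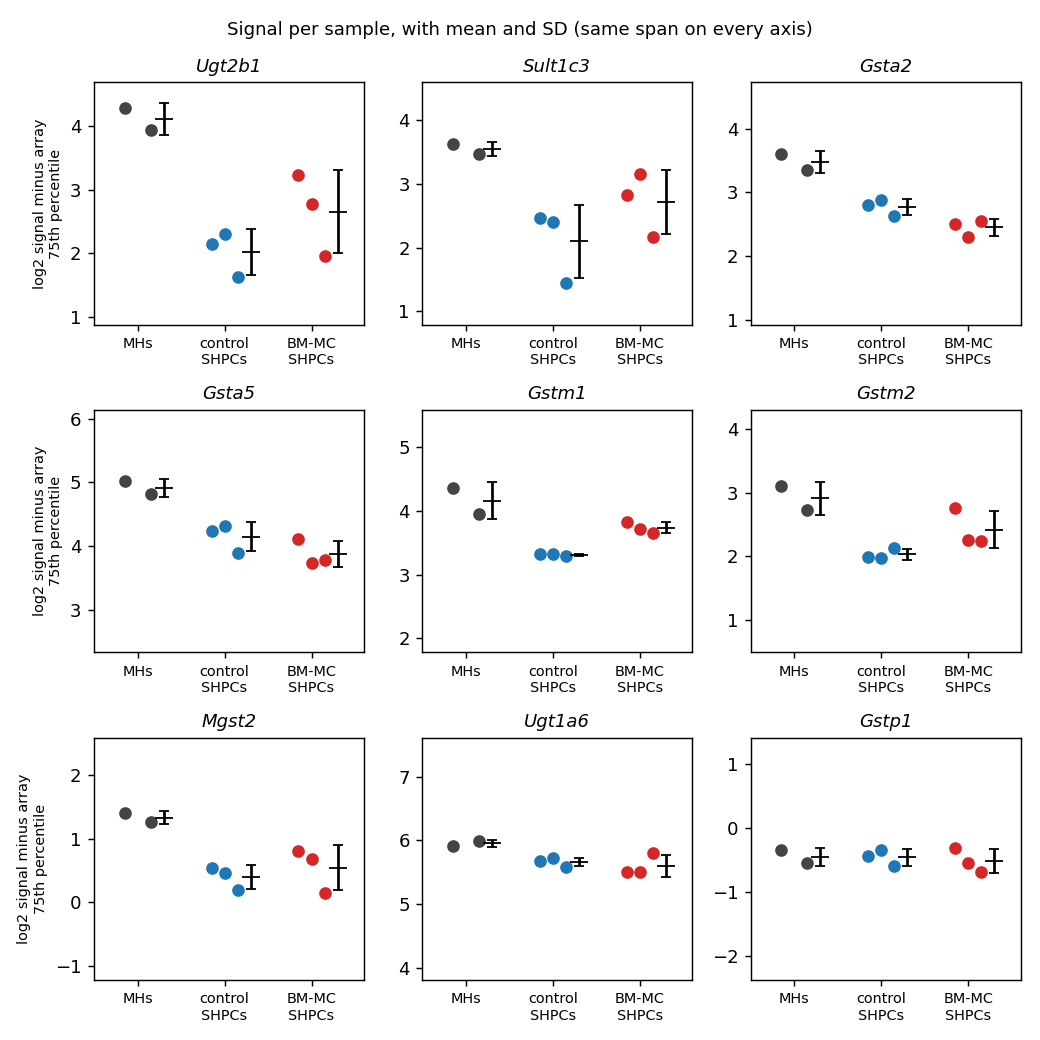
Points are samples, and the bars beside them are the group mean and SD of the log2 signal relative to the 75th percentile of the array, for 9 genes on axes of equal span. Gsta2 and Gsta5 step down from MHs to both SHPC groups, Gstm1 and Gstm2 are lowest in control SHPCs, Ugt2b1 and Sult1c3 scatter among BM-MC samples, and Ugt1a6 and Gstp1 move little.

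Among the microsomal enzymes Mgst2, which also acts in leukotriene synthesis, was at 1.40 and 1.26 in MHs, 0.54, 0.46 and 0.19 in control SHPCs and 0.80, 0.68 and 0.15 in BM-MC SHPCs. Every SHPC sample was below both MHs (control SHPCs against MHs, log2 fold change -0.93, SE 0.21, adjusted p = 0.104). Mgst1, a peroxidase of the endoplasmic reticulum and mitochondria, was between 4.96 and 5.07 in MHs, between 4.66 and 4.96 in control SHPCs and between 4.51 and 4.91 in BM-MC SHPCs. Mgst3 differed widely between the MHs, at 3.20 and 2.49, and was between 3.18 and 3.62 in control SHPCs.

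Of the glucuronosyltransferases, Ugt2b1, a phenobarbital-inducible enzyme of steroid and drug glucuronidation, showed the largest difference. It was at 4.29 and 3.93 in MHs, 2.15, 2.31 and 1.62 in control SHPCs and 3.24, 2.78 and 1.95 in BM-MC SHPCs. All SHPC samples were below both MHs, and the BM-MC samples ran from within the control range to a level between the controls and the MHs. The log2 fold change of control SHPCs against MHs was -2.08 (SE 0.38, adjusted p = 0.0557), a ratio of 4.23. It passed in 8 of the 23 alternatives with an adjusted p and stayed between -2.26 and -1.80. Measured by 1 probe on chr14:22650838-22650897, it has no second probe to set beside it.

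By their brightest probes the other Ugt genes gave 0 with an unadjusted p under 0.05 in this comparison. Ugt2b15 was between 4.91 and 5.0 in MHs, 4.90 and 5.11 in control SHPCs and 4.75 and 5.03 in BM-MC SHPCs. Ugt2b37 was between 3.36 and 3.55 in MHs, 3.30 and 3.57 in control SHPCs and 3.18 and 3.46 in BM-MC SHPCs. Ugt2b was between 1.11 and 1.64 over all 8 samples, and its brightest probe is the one shown beside that of Ugt2b37. By these brightest probes Ugt2b15 and Ugt2b37 overlapped between all groups. The second Ugt2b37 probe did not: it was at 2.68 and 2.36 in MHs, between 1.94 and 2.18 in control SHPCs and between 2.06 and 2.24 in BM-MC SHPCs (control SHPCs against MHs -0.48, adjusted p = 0.16). The second Ugt2b35 probe was at -1.52 and -1.72 in MHs, -2.40, -2.41 and -2.73 in control SHPCs and -2.02, -1.67 and -2.20 in BM-MC SHPCs. Its controls lay below all other samples (against MHs -0.89, SE 0.19, adjusted p = 0.0874), whereas the brightest Ugt2b35 probe was at 0.03.

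Ugt1a6, an enzyme for small phenols, was at 5.92 and 5.99 in MHs, 5.67, 5.72 and 5.59 in control SHPCs and 5.50, 5.51 and 5.80 in BM-MC SHPCs. The bright probe lies at chr9:87098271-87098330, near the far end of the Ugt1 locus. There, as background, a row of alternative first exons is followed by exons that all Ugt1a transcripts share, so this signal may sum several isoforms. The dim second probe, at chr9:87041702-87041761 among the first exons, gave -0.30 for control SHPCs against MHs and the bright one -0.29. Ugt1a9 was between -4.14 and -3.32 in MHs and between -3.94 and -3.48 in control SHPCs.

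Sult1c3, a sulfotransferase of the phenol family, was at 3.62 and 3.47 in MHs, 2.46, 2.40 and 1.44 in control SHPCs and 2.83, 3.15 and 2.17 in BM-MC SHPCs. All SHPC samples were below both MHs, and its probes gave log2 fold changes of -1.45 (adjusted p = 0.131) and -1.27 for control SHPCs against MHs. Sult1a1, the general phenol sulfotransferase, was at 5.08 and 5.05 in MHs, 4.78, 4.86 and 5.02 in control SHPCs and 4.82, 4.69 and 4.70 in BM-MC SHPCs. The hydroxysteroid sulfotransferase Sult2a1 was between 6.72 and 6.74 in MHs, 6.52 and 6.62 in control SHPCs and 6.37 and 6.64 in BM-MC SHPCs. Sult2a6 was between 6.52 and 6.64 in MHs, 6.66 and 6.81 in control SHPCs and 6.15 and 6.76 in BM-MC SHPCs. Sult2a2, of the same subfamily, was at 3.73 and 4.03 in MHs, 4.17, 4.06 and 4.40 in control SHPCs and 3.66, 3.28 and 4.16 in BM-MC SHPCs, so controls lay above the MHs (log2 fold change 0.33, SE 0.26, adjusted p = 0.508). By the brightest probes 1 sulfotransferase gene, Sult1c3, had an unadjusted p under 0.05. A dimmer second probe of Sult2a1 was at 2.61 and 2.78 in MHs, 2.18, 1.99 and 1.94 in control SHPCs and 2.73, 2.50 and 2.06 in BM-MC SHPCs, with controls below both MHs (log2 fold change -0.66, unadjusted p = 0.0132, adjusted p = 0.165).

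By their brightest probes the remaining Gst classes gave 0 of 8 genes at an unadjusted p under 0.05, while another probe of Gstt2, a theta class enzyme, was at -0.46 (adjusted p = 0.122). Gstp1, the placental form that marks preneoplastic foci in rat liver, was at -0.35 and -0.55 in MHs, -0.44, -0.34 and -0.60 in control SHPCs and -0.31, -0.55 and -0.68 in BM-MC SHPCs. Its groups overlapped throughout. Gstz1, which acts in tyrosine breakdown, was between 4.41 and 5.02 in MHs and between 4.66 and 5.15 in control SHPCs. Gstk1, the class kappa enzyme, was between 3.31 and 3.97 in MHs and between 3.56 and 4.03 in control SHPCs. Gsto1 was between 1.06 and 1.19 in MHs and between 1.33 and 1.43 in control SHPCs, which did not overlap (unadjusted p = 0.0926).

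BM-MC SHPCs were compared with the same MHs, so this comparison shares its reference samples with the one above. Gsta2 was the 1 member gene called lower (0.0173% of all tested probes), and 0 were called higher (0.32%). At an unadjusted p under 0.05, 10 genes were lower (23.3%, against 5.95% of all tested probes) and 1 higher (2.33%, against 7.33%). In 14 genes every BM-MC sample was below both MHs (32.6%, against 16.3%), and in 1 every one was above (2.33%, against 16.1%). The median of the 43 genes was -0.16, against 0.00 over all tested probes, and 32 lay below 0 (74.4%, against 49.5% of all tested probes). Without BM-MC SHPC replicate 2 25 of 43 lay below 0 (median -0.08), and 26 did once MH replicate 1 was left out (median -0.14). The median was -0.26 without BM-MC SHPC replicate 3 (33 below 0) and -0.25 without MH replicate 2 (37 below 0). With the set of arrays as a block it was -0.36, again with 37 below 0. With the median of each array in place of its 75th percentile, the median over all tested probes went from 0.00 to -0.19, and then 41 member genes lay below 0.

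Gsta2, whose samples are given above, averaged 3.48 ± 0.18 (SD, n = 2) in MHs and 2.45 ± 0.13 (SD, n = 3) in BM-MC SHPCs. The log2 fold change was -1.02 (SE 0.15, adjusted p = 0.0465), a 2.03-fold lower level. It lost the call without any 1 of the 8 samples, with an adjusted p between 0.0622 and 0.299, and held under 5 of the 23 alternatives with an adjusted p, which ran from 0.00875 to 0.48. The log2 fold change stayed between -1.22 and -0.82. Both MHs lay in 1 set of arrays and all BM-MC SHPCs in the other, so this comparison ran across the sets, linked only by the control SHPCs. The alpha class lay below 0 in all 5 genes (median -1.02), or in 4 of 5 without MH replicate 1, with 4 at an unadjusted p under 0.05: beside Gsta2 they were Gsta3 at -1.08 (adjusted p = 0.115), Gsta5 at -1.04 (adjusted p = 0.0909) and Gsta1 at -0.53 (adjusted p = 0.282). Gsta4 was at -0.13. With the set as a block the class median was -0.66, Gsta5 was at -0.66, Ugt2b1 at -0.84 and Mgst2 at -0.48. Without that block Ugt2b1 was at -1.45 (SE 0.38, adjusted p = 0.237), Mgst2 at -0.79 (adjusted p = 0.26), Ugt1a6 at -0.35 (adjusted p = 0.345) and Sult1a1 at -0.33 (adjusted p = 0.34). With Gstm1 and Gstm2 these were the 10 genes of lower level at an unadjusted p under 0.05. Sult1c3, also below both MHs in every BM-MC sample, was at -0.83 (unadjusted p = 0.0605).

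In the mu class 6 of 8 genes lay below 0 against MHs (median -0.30), or 5 of 8 without MH replicate 1 (median -0.17) or BM-MC SHPC replicate 2 (median -0.19). With a floor for dim signals it was 5 of 8 (median -0.30), and with median scaling 7 of 8 (median -0.49). Gstm1 and Gstm2 were at -0.42 and -0.49. Gstm6l, a gene near Gstm6 in the cluster, was the 1 member gene whose brightest probe had an unadjusted p under 0.05 and a higher level in BM-MC SHPCs than in MHs. It was at -5.03 and -4.85 in MHs, -5.48, -5.41 and -4.52 in control SHPCs and -3.67, -4.26 and -3.59 in BM-MC SHPCs. All BM-MC samples were above all others, at signals near the lower end of the tested range (log2 fold change against MHs 1.10, SE 0.33, adjusted p = 0.282). It spanned 0.17 to 1.31 over the alternatives.

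**Figure D3:**
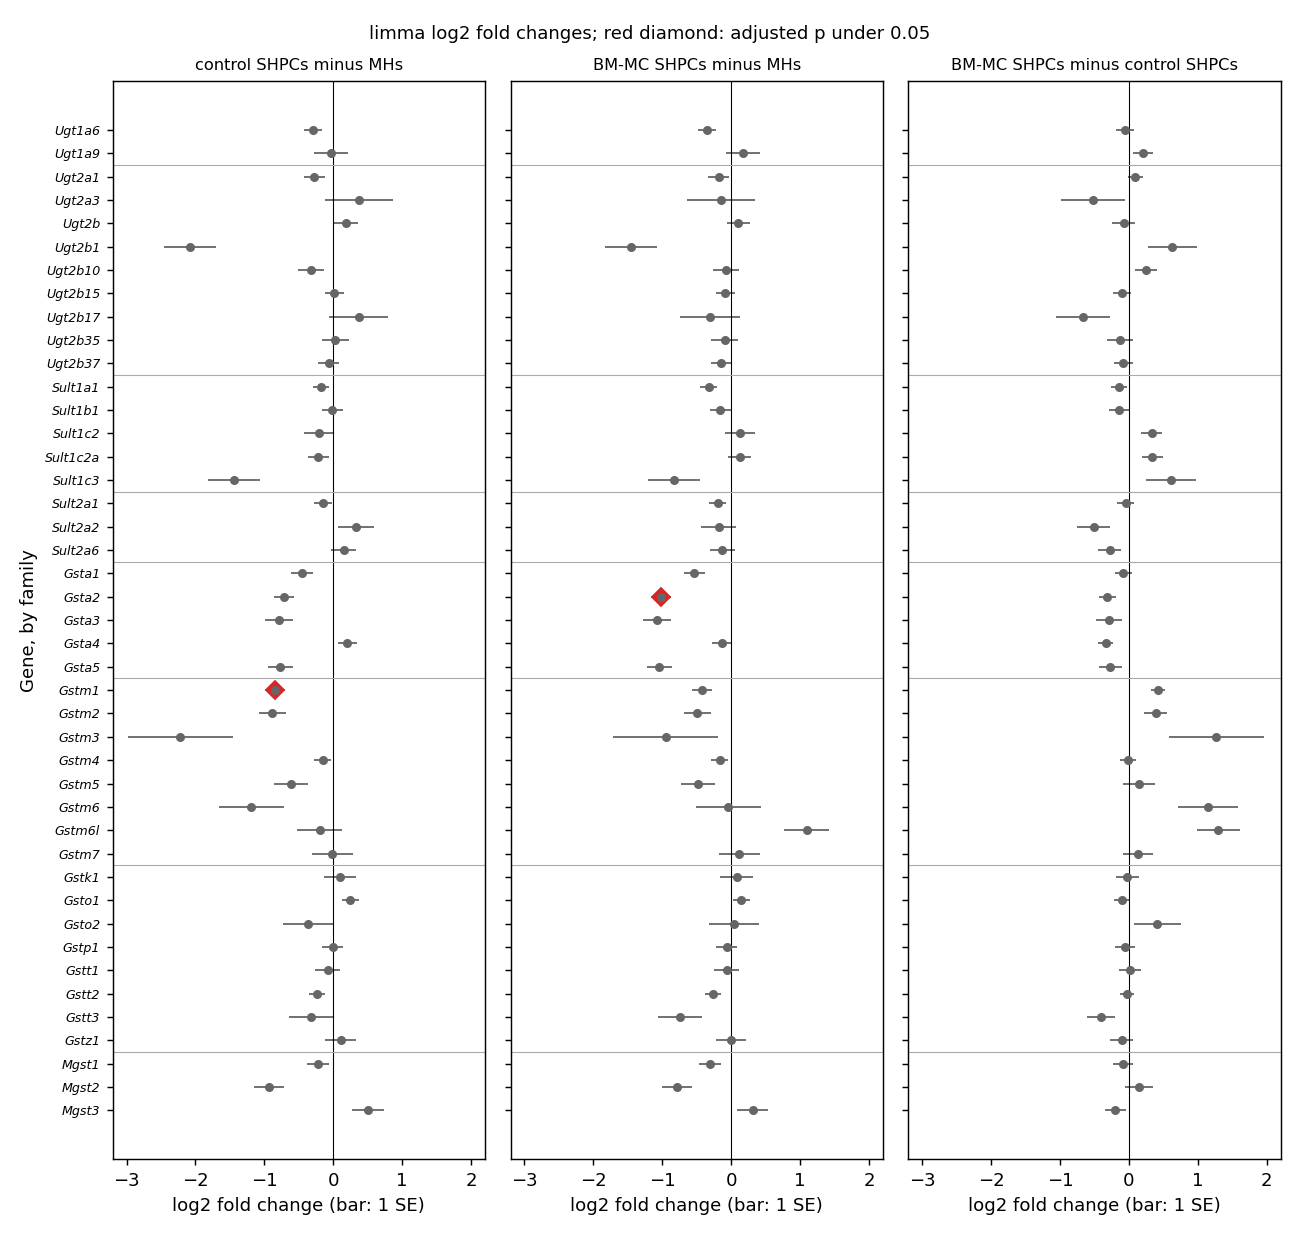
Points are limma log2 fold changes of the 43 tested genes, ordered by family, with bars of 1 SE, and red diamonds mark an adjusted p under 0.05. The diamonds are Gstm1 for control SHPCs against MHs and Gsta2 for BM-MC SHPCs against MHs, and there is none for BM-MC against control SHPCs. Points of Gstm6 rest on control signals not well above background.

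BM-MC SHPCs and control SHPCs were compared to see whether transplantation altered the enzymes within the clusters. No member gene was called higher (0.0216% of all tested probes) or lower (0%), by limma or by the methods' t-test after adjustment. At an unadjusted p under 0.05 limma gave 3 higher (6.98%, against 10.7% of all tested probes) and 2 lower (4.65%, against 5.92%), and the methods' t-test 2 and 2. The BM-MC samples all exceeded the controls in 5 genes (11.6%, against 13.1%) and all fell short of them in 2 (4.65%, against 11.7%). By brightest probes these shares were under those of all probes. Over all 64 tested member probes 9 were higher at an unadjusted p under 0.05 (14.1%) and 2 lower (3.12%), 11 exceeded the controls without overlap (17.2%), and 32 lay on each side of 0, so the order against all probes turned for the higher side. The other probes behind this were of Gstm1, Gstm3, Sult1c2, Sult1c2a, Ugt2b17 and Ugt2b35. That Ugt2b17 probe was well above background on 4 of 7 arrays, and the tally also holds Gstm6, above background on 0 of 3 control arrays. Probes were not counted without them, so whether the order still turns is not settled. The median of the members was -0.06, against 0.02 over all tested probes, with 17 above 0 (39.5%, against 52.6%) and 26 below (60.5%, against 47.4%). With each array set on its median, the median over all tested probes was -0.17 and 12 of 43 member genes lay above 0. The balance turned without BM-MC SHPC replicate 2, with 24 above 0 and 19 below (median 0.04), and was 22 and 21 without control SHPC replicate 3 (median 0.01), so no direction is given for the members as a whole.

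Within the members, the mu and alpha classes lay on opposite sides of 0. By brightest probes Gstm1 and Gstm6l had a higher level at an unadjusted p under 0.05, and both genes of lower level were alpha genes (Gsta2 and Gsta4). The count of 3 higher above also holds Gstm6, which was above background on 0 of 3 control and 1 of 3 BM-MC arrays and showed no measurable difference. Of 8 mu genes 7 lay above 0 (median 0.41), and 4 of them, Gstm1, Gstm2, Gstm6 and Gstm6l, did not overlap between the groups. Without Gstm6 it was 6 of 7 (median 0.39), with 3 that did not overlap. With median scaling 5 of 8 lay above 0 (median 0.22), and with quantile normalization 6 of 8 (median 0.45). It was 8 of 8 without control SHPC replicate 3, 7 of 8 without BM-MC SHPC replicate 3 and 6 of 8 without BM-MC SHPC replicate 1. All 5 alpha genes lay below 0 (median -0.29), as they did under median scaling, quantile normalization, no scaling and with any sample left out. With the set on the slide as a block, their median was -0.17. Whether the classes differ from each other was not tested.

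Gstm1 gave a log2 fold change of 0.42 between BM-MC and control SHPCs (SE 0.10, adjusted p = 0.171), with all BM-MC samples above all controls, and 0.23 with median scaling. Gstm2 was at 0.39 (SE 0.17, adjusted p = 0.309). Gstm6l was at 1.30 (SE 0.31, adjusted p = 0.169), with a range from 0.48 to 1.60 over 21 alternatives with an adjusted p. It was called higher without control SHPC replicate 3 (1.60, adjusted p = 0.04), and against that replicate alone, the control in the array set of the BM-MC samples, it was at 0.68. Sult1c2a, the fifth gene without overlap, was at 1.61, 1.53 and 1.86 in control SHPCs and at 2.09 and 1.92 in BM-MC SHPC replicates 1 and 3, the fit dropping replicate 2, whose spot was an outlier (log2 fold change 0.34, SE 0.16, adjusted p = 0.35). Among alpha genes, Gsta4 was at 2.47, 2.38 and 2.58 in BM-MC SHPCs, below all controls (log2 fold change -0.34, SE 0.11, adjusted p = 0.236), and Gsta2 was at -0.31 (SE 0.13, adjusted p = 0.293). For Ugt2b1 and Sult1c3 the difference was 0.63 (SE 0.35) and 0.62 (SE 0.36), with overlapping groups. In the array set of the BM-MC samples, measured against control SHPC replicate 3 alone, the differences were 0.44 for Gstm1, 0.29 for Gstm2, -0.17 for Gsta2, -0.35 for Gsta4 and 1.03 for Ugt2b1. Measured so, Sult1c3 was at 1.27, and Gsta5 was at -0.01, beside -0.27 against all controls. Within the other set, control SHPC replicates 1 and 2 differed from the MHs by -0.84 for Gstm1, -0.64 for Gsta2 and -1.88 for Ugt2b1.

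Several tested probes were available for 17 member genes, and for control SHPCs against MHs their log2 fold changes had 1 sign in 10 genes and differed in sign in 7. The largest spread between probes was 1.20, for Gstm3. The probes of Gstm1, Gsta1, Gsta3, Sult1c3 and Ugt1a6 all lay below 0. Those of Ugt2b, Ugt2b17 and Ugt2b35 lay on both sides, and between BM-MC and control SHPCs the Ugt2b17 probes stood at -0.67 and 1.93, so no direction is given for these 3 genes in those comparisons. The Ugt2b17 probe at 1.93 was well above background on 4 of 7 arrays. Its control SHPCs were very dim, at -7.19, -6.33 and -6.33, so the size of that difference is not settled.

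**Figure D4:**
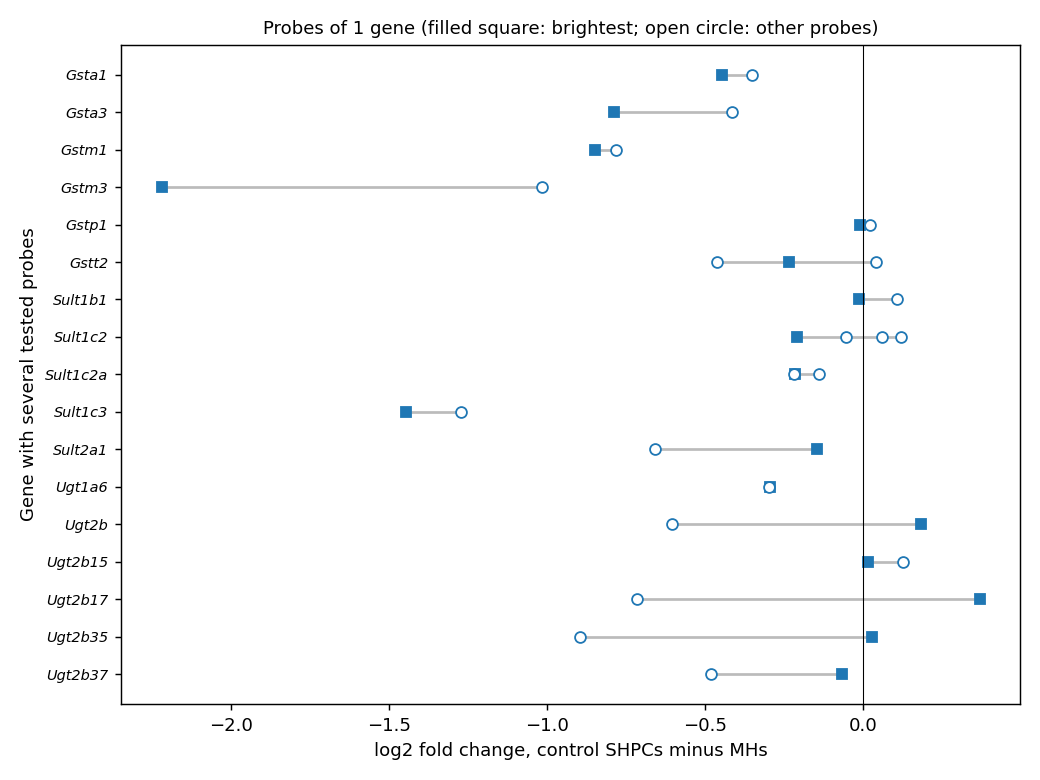
Each row is a gene with several tested probes, and symbols give the log2 fold change of control SHPCs against MHs for each probe, with a filled square for the brightest. Probes of Gstm1, Sult1c3 and Ugt1a6 lie close together, while those of Gstm3, Ugt2b, Ugt2b17 and Ugt2b35 are spread widely.

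The supply of donors to these enzymes was followed by lists drawn up for this report. None of 6 tested genes of glucuronic acid supply passed in any comparison with limma. Only 1 had an unadjusted p under 0.05, with a higher level in control SHPCs than in MHs (against 8.21% of all tested probes). In control SHPCs against MHs the genes of this list ran from -0.23 for Slc35d1 to 0.42 for Slc35b1. None of 7 tested genes of sulfate donor supply passed. Papss1, which makes the donor PAPS, was lowest against MHs at -1.02 in control SHPCs (adjusted p = 0.0984). It was the 1 gene of the list at an unadjusted p under 0.05 there (against 11% of all tested probes lower). Of 17 genes of glutathione supply and turnover, Ggt1 was called higher in control SHPCs than in MHs (against 0.917% of all tested probes). At an unadjusted p under 0.05, 3 were higher there (against 8.21% of all tested probes) and 0 lower (against 11%). BM-MC SHPCs against MHs also gave 3 higher (against 7.33% of all tested probes) and 0 lower at that p, with 0 called by limma. Ggt1, which breaks down extracellular glutathione and is high in fetal liver, was at -4.45 and -4.85 in MHs, -2.14, -2.16 and -2.07 in control SHPCs and -3.21, -3.21 and -1.87 in BM-MC SHPCs (log2 fold change 2.53, SE 0.39, adjusted p = 0.0341). Gclc, the rate-limiting enzyme of glutathione synthesis, was at -0.12. Of 16 other conjugation enzymes Acsm3, an acyl-CoA synthetase, was called higher in control SHPCs than in MHs (log2 fold change 1.73, adjusted p = 0.0495). Over all tested probes 0.917% were called higher. In this list 11 of 16 lay below 0 (against 53.8% of all tested probes). At an unadjusted p under 0.05, 3 were lower and 2 higher (against 11% and 8.21%).

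Regulators and their other targets were counted in the same way. Of 19 tested regulators, Nr1i3, which encodes CAR, was called lower in control SHPCs than in MHs, against 0.216% of all tested probes. At an unadjusted p under 0.05, 6 were lower and 0 higher, against 11% and 8.21% of all tested probes. Nr1i3 was at 0.41 and -0.46 in MHs, -2.20, -1.81 and -2.24 in control SHPCs and -0.63, -0.72 and -1.58 in BM-MC SHPCs (control SHPCs against MHs -2.06, SE 0.36, adjusted p = 0.0494). Nr1i2 was at 0.34 and Nfe2l2 at -0.77 (adjusted p = 0.162). Of 15 tested genes induced by the same factors, 3 were called lower in control SHPCs than in MHs, against 0.216% of all tested probes. At an unadjusted p under 0.05, 10 were lower and 2 higher, against 11% and 8.21% of all tested probes. The 3 were Cyp2b2, the classic CAR target, at -2.49 (SE 0.37, adjusted p = 0.0306), the conjugate exporter Abcc3 at -1.95 (SE 0.31, adjusted p = 0.0377) and Srxn1, an Nrf2 target, at -0.73 (SE 0.12, adjusted p = 0.0385). In BM-MC SHPCs against MHs 0 genes of these 2 lists passed, and at an unadjusted p under 0.05 8 co-targets were lower and 1 higher, and 3 regulators lower and 1 higher, against 5.95% of all tested probes lower and 7.33% higher. In BM-MC against control SHPCs 0 passed, and at that p 3 co-targets were higher and 1 lower, and 3 regulators higher and 0 lower, against 10.7% of all tested probes higher and 5.92% lower.

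In summed signal, some marker lists of zone and of other cells lay apart between groups, while others overlapped. The summed linear signal of 10 pericentral hepatocyte markers, from the part of the lobule richest in many conjugating enzymes, ran from 133 to 199 in MHs, from 70.6 to 89.9 in control SHPCs and from 77.4 to 126 in BM-MC SHPCs. All 10 lay below 0 in control SHPCs against MHs, against 53.8% of all tested probes. At an unadjusted p under 0.05, 8 were lower (against 11% of all tested probes), and 0 were called. Cyp1a2 stands in this list and among the co-targets. The 10 periportal markers summed to between 211 and 221 in MHs, 270 and 376 in control SHPCs and 270 and 353 in BM-MC SHPCs. The Kupffer cell and macrophage markers, 10 of 10 tested, ran from 90 to 96.1 in MHs, from 46.4 to 67.3 in control SHPCs and from 57.7 to 82.9 in BM-MC SHPCs. Proliferation genes, 12 of 12 tested, ran from 2.89 to 3.39, from 8.12 to 12.9 and from 4.66 to 7.54 in the same order. Against MHs 6 were called higher in control SHPCs and 5 in BM-MC SHPCs (against 0.917% and 0.32% of all tested probes). In BM-MC against control SHPCs all 12 lay below 0 (against 47.4% of all tested probes). Of these 9 had an unadjusted p under 0.05 (against 5.92% lower), and 0 were called. Erythroid markers (8 of 10 tested) summed to 19.9 and 40 in MHs and to 33.4, 32.1 and 108 in control SHPCs. In BM-MC SHPCs they summed to 15.1, 15.9 and 21.2. At an unadjusted p under 0.05, 5 of the 8 were lower in BM-MC than in control SHPCs (against 5.92% of all tested probes). Granulocyte and lymphocyte markers (5 of 10 tested) summed over the 5 to between 0.907 and 2.29 in MHs and 1.64 and 2.18 in control SHPCs. In BM-MC SHPCs the sum lay between 0.919 and 1.03. At an unadjusted p under 0.05, 4 of the 5 were lower in BM-MC than in control SHPCs (against 5.92% of all tested probes). In both of these lists the BM-MC samples lay below all controls, and 0 genes were called. Stellate cell and fibroblast markers (10 of 10 tested) ran from 8.83 to 9.28 in MHs, from 7.53 to 8.16 in control SHPCs and from 7.5 to 11.5 in BM-MC SHPCs. Of these, 1 was called lower in control SHPCs than in MHs (against 0.216% of all tested probes). At an unadjusted p under 0.05, 3 were higher and 3 lower there (against 8.21% and 11%). BM-MC SHPCs against MHs gave 4 higher and 1 lower at that p (against 7.33% and 5.95%). Sinusoidal endothelial markers (9 of 10 tested) ran from 15.5 to 18.8 in MHs, from 13.6 to 15.7 in control SHPCs and from 15.6 to 17.6 in BM-MC SHPCs. The 7 tested biliary markers were dim and summed to between 0.391 and 0.517 in MHs, 0.522 and 0.559 in control SHPCs and 0.539 and 0.668 in BM-MC SHPCs. The part of these in the members' differences was not tested.

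For 45 of the 52 genes a RefSeq promoter (GRCr8, 250 bases before to 50 after the start) was at hand. The antioxidant response element core TGACNNNGC, read on both strands, occurred in 7 of 45 (15.6%), against 12.1% of 33469 promoters of the same length. They included Gsta1, Gsta2 and Gsta3 of 5 alpha genes and 2 of 7 mu genes, and 0 of 8 Ugt2 genes. The xenobiotic response element core GCGTG occurred in 10 of 45 (22.2%, against 29.7%), 3 of them alpha genes. Gstm1, Ugt2b1 and Sult1c3 held neither in this window. A match in a window of 300 bases is a description of its letters only.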

How the data were processed

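RNA of laser-captured cells was labelled with Cy3 and hybridised to 1-colour Agilent rat arrays. The authors deposited each array's processed intensity from Agilent Feature Extraction 10.7, with background already subtracted and no scaling between arrays. The scanner file of control SHPC replicate 2 held 20903 of 62976 features, so its intensities came from the deposited value table, which matched the scanner files within a relative difference of 1.19e-06, and its background marks were not used for the filter. Signals were set on the log2 scale minus each array's 75th percentile, outlier spots were dropped and spots of a probe averaged. The filter kept 23111 probes marked as well above background by 3 or more of 7 arrays, and limma 3.58.1 was run on them (R 4.3.3, lmFit and eBayes, Benjamini-Hochberg over all of them, threshold 0.05). BM-MC and control SHPCs were fitted on their 6 samples, and the comparisons with MHs in 1 fit of all 8. Of 81 member probes, 71 were named by accession, 8 by current symbol and 2 by the file's name alone. A gene was given by the tested probe with the highest mean over all arrays. No pair of samples within a group held identical values, and the median difference within groups ran from 0.138, between control SHPC replicates 1 and 2, to 0.234.

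The members and gene lists were chosen with earlier results of these data known. Named genes were those called, the 5 largest differences in each direction and comparison among genes without overlap, the 2 brightest of each family, and, whatever their values, Gstp1, Sult1e1, Sult2a1, Sult1a1, Ugt2b1, Gsta2, Gstm1 and Mgst1. Other genes named above were chosen after their values were seen. Alternatives changed the scaling, background correction, filter, floor, outlier spots, blocks, variance model, test, probe of a gene, fitted samples and each left-out sample. The fit was checked on simulated data. The number of arrays limits the precision.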

Additional observations from a re-analysis of the deposited data

How the results depend on the processing

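Among the genes that the rule for named genes chose, which leaves out Gstm5, no log2 fold change with an unadjusted p under 0.05 changed sign under the alternatives run, whereas calls came and went. For control SHPCs against MHs, where 1 member gene was called lower, 0 were called with median scaling, no scaling, no filter on dim probes, outlier spots kept, the mean of the probes of a gene, the set on the slide as a block, or the methods' t-test after adjustment. The count was 2 with the filter on every array, with a floor for dim signals and with array weights, 6 with an intensity trend, and 12 lower and 1 higher by the methods' t-test unadjusted. With each sample left out it ran from 0 to 3, with Gstm1, Mgst2 and Ugt2b1 called without BM-MC SHPC replicate 3, and 0 without MH replicate 1, any control SHPC replicate or BM-MC SHPC replicate 2. For BM-MC SHPCs against MHs, also 1 lower, 0 were called with median scaling, quantile normalization, no scaling, normexp, no filter, outlier spots kept, the set on the slide as a block, only the 2 groups, or the adjusted t-test. The intensity trend gave 3, and the unadjusted t-test 5 lower and 1 higher. With each sample left out it ran from 0 to 1, the 1 being Gsta3 without BM-MC SHPC replicate 1. For BM-MC against control SHPCs, where 0 were called, the unadjusted t-test gave 2 higher and 2 lower, and leaving out samples gave 0 to 1 higher, the 1 being Gstm6l without control SHPC replicate 3. The cause of these changes was not tested.

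Whether samples of 1 replicate number belong together is given neither by the labels nor by the methods. Same-numbered control and BM-MC SHPC samples deviated together at r = 0.133, 0.0801 and 0.175. Those of unlike number ran from -0.157 to 0.0853, and control replicate 2 correlated best with BM-MC replicate 1 (0.0853). Deviations from the means of groups of 3 samples cannot settle whether samples were paired. With the replicate number as a block, 0 member genes were called lower in BM-MC SHPCs against MHs, and in control SHPCs against MHs 1 was still called, Ugt2b1 (adjusted p = 0.0359) in place of Gstm1 (adjusted p = 0.119). The count for BM-MC against control SHPCs stayed at 0.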
